A study of Mus musculus with 7 samples.

Results

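The genes described here encode the proteins of the mitochondrial ribosome that carry an Mrpl (large subunit) or Mrps (small subunit) symbol. Every row of the count table whose symbol is Mrpl or Mrps followed by a number and at most 1 letter was taken, which gave 78 of 34305 rows, 49 for the large and 29 for the small subunit. The rule uses names alone and no measured value. Poly(A) RNA was sequenced from 7 libraries of mouse HSPCs (haematopoietic stem and progenitor cells) grown in culture, the blood-forming cells of the marrow and their early descendants. The study set cells overexpressing MN1-∆pQ, labelled MN1pQdel, against cells overexpressing MN1, with cells that received neither as background. MN1 is a transcriptional co-regulator and an oncogene in acute myeloid leukaemia, and MN1pQdel is the protein lacking its polyglutamine stretch.

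The groups were MN1pQdel (3 libraries), MN1 (3 libraries) and noTD (1 library). All groups shared a medium with serum, IL-3, IL-6 at 10 ng/mL and stem cell factor at 20 ng/mL. The labels' shared protocol gives a sort after transduction, 7 to 9 days of culture and paired reads of 150 bases. It is worded the same for noTD, whose source label reads as transduced while its title and overexpression label say that nothing was expressed. No source used here gives a strain, age or sex of the mice, and nothing says whether the libraries of a group came from separate animals, although the series text calls them independent. The p-values therefore measure the spread between these libraries, which may be technical. The construct and the cells' own Mn1 gene are counted together, and no source used here names the vector or its promoter. The noTD cells did not pass through transduction and are a single library, so no test involves them. In bulk RNA, fewer cells of a type and less RNA per cell cannot be told apart.

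Mitochondria keep a small genome of their own, and the ribosome that translates it is built inside the organelle from RNA encoded there and from proteins that are all encoded in the nucleus, made in the cytosol and imported. Its products are subunits of the respiratory chain and of ATP synthase, so this ribosome is needed for oxidative phosphorylation. Some of its proteins descend from the ribosome of the bacterial ancestor, and others were added during the evolution of mitochondria. In blood formation, quiescent stem cells are known to rely mainly on glycolysis, and mitochondrial activity increases as progenitors cycle and differentiate.

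Library totals ran from 43025322 to 67728808 estimated counts in MN1pQdel and from 38210847 to 43195204 in MN1, with 38643092 in noTD. Mn1 stood at 692, 401 and 732 CPM (counts scaled to a common library size by TMM over all 7 libraries) in MN1pQdel, at 313, 286 and 284 CPM in MN1 and at 34.5 CPM in noTD. It was thus higher in MN1pQdel (log2 fold change 1.05, SE 0.23, adjusted p = 0.0282 in edgeR's quasi-likelihood test), and amount and polyglutamine deletion cannot be told apart. MN1pQdel replicate 2 stood apart from its group, with 9 eosinophil markers summing to 3407, 234 and 3667 CPM in MN1pQdel replicates 1 to 3, 21.4, 13.3 and 21.2 CPM in MN1 and 3907 CPM in noTD. Of the HSPC marker list, 16 of 16 genes were measured in every group, summing to between 2656 and 4348 CPM in MN1pQdel, between 3241 and 3872 CPM in MN1 and to 3983 CPM in noTD. These sums hide differences in single genes. Of the 16, 7 were lower and 3 higher in MN1pQdel than in MN1 (edgeR adjusted p under 0.05, against 6.08% and 11.1% of all genes). In MN1, 8 were more than 1.5-fold higher and 8 more than 1.5-fold lower than noTD, against 21.6% and 24.9% of all genes. Markers of mature cells were present as well: the 15 neutrophil markers summed to between 27467 and 38007 CPM in MN1pQdel, between 4373 and 8124 CPM in MN1 and to 40598 CPM in noTD, and none was at 0 in any library.

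All 78 genes were expressed in all 7 libraries and all passed the filter on low counts. Their summed level was 2781, 3258 and 2558 CPM in MN1pQdel replicates 1 to 3, 3300, 3777 and 3222 CPM in MN1 replicates 1 to 3, and 2720 CPM in noTD. Replicate 2 was the highest library of both transduced groups, and MN1pQdel replicate 2 lay above MN1 replicate 3, so the groups overlapped by that library. Both subunits showed the same order. The 49 large subunit genes summed to 1793, 2086 and 1669 CPM in MN1pQdel, to 2093, 2409 and 2058 CPM in MN1 and to 1759 CPM in noTD. The 29 small subunit genes summed to 988, 1172 and 888 CPM in MN1pQdel, to 1208, 1368 and 1163 CPM in MN1 and to 961 CPM in noTD. On this summed scale, MN1pQdel lay 0.26 below MN1 on the log2 scale, and MN1pQdel replicates 1 and 3 lay close to noTD. The 20 genes of a proliferation list showed a similar order of libraries: they summed to 4158, 5588 and 4049 CPM in MN1pQdel, to 5183, 5710 and 5000 CPM in MN1 and to 4002 CPM in noTD, all 20 above 0 everywhere. Their part in the level of the mitochondrial ribosomal protein genes was not tested.

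**Figure D1:**
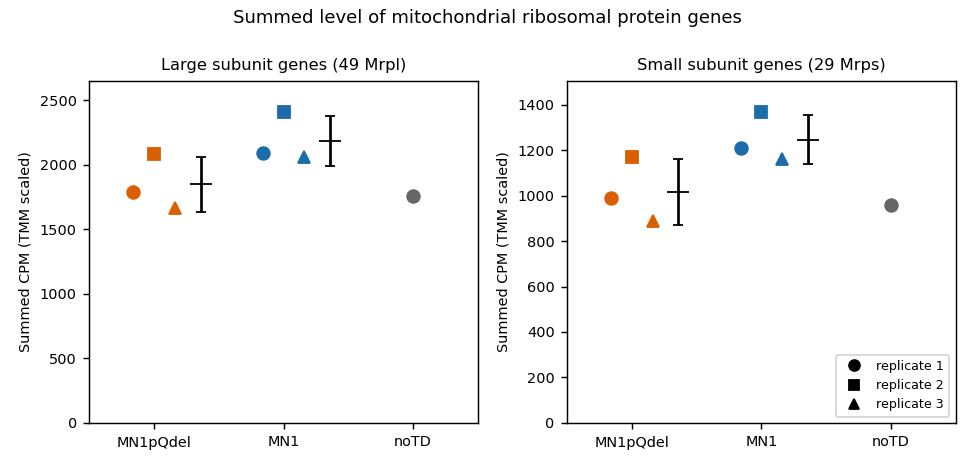
Summed level of the 49 Mrpl genes (left) and the 29 Mrps genes (right) in CPM for each library of MN1pQdel, MN1 and noTD, with the mean and SD over 3 libraries beside each transduced group. Marker shape gives the replicate number. Within every replicate number the MN1pQdel library lies below the MN1 library, and the squares (replicate 2) are the highest of both groups.

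The main comparison asks how expression differs when the polyglutamine stretch of MN1 is missing. Most mitochondrial ribosomal protein genes lay somewhat lower in MN1pQdel than in MN1, but only 1 of them was called in the unpaired fit. The fold change of MN1pQdel over MN1 was below 0 on the log2 scale for 70 of 78 genes, against 49.3% of the 14808 genes tested. The median was -0.27 over the 78 genes and 0.01 over all genes tested, with the middle of the list between -0.43 and -0.12. Only Mrpl38 passed the threshold, with a lower level in MN1pQdel, and 0 genes passed with a higher one (adjusted p under 0.05 by edgeR's quasi-likelihood test, Benjamini-Hochberg method). Across all genes 6.08% were called lower and 11.1% higher, so the share of members called was below the background. The DESeq2 test called 8 lower and 1 higher, against 12.9% and 16.5% of all genes, and limma-voom 2 lower and 0 higher, against 6.58% and 8.95%. At an unadjusted p under 0.05, 21 members were lower and 1 higher, against 16.8% and 21.0% of all genes. The libraries of the groups did not overlap for 29 genes that were lower and 1 that was higher in MN1pQdel, against 21.3% and 22.1% of all genes. All 15 neutrophil markers were higher in MN1pQdel (edgeR adjusted p under 0.05), and their part in the lower level of these genes was not tested.

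The picture of single calls changed with the pairing of libraries. The replicate numbers paired the libraries in the data (same-number libraries deviated together, as given under the processing). Within pairs the members were lower in MN1pQdel for 68, 71 and 69 of 78 genes in pairs 1, 2 and 3, with medians of -0.26, -0.23 and -0.36. Of all 14808 genes tested, 7413, 7375 and 7355 were lower in these pairs, with medians of -0.001, 0.001 and 0.007. With the replicate number as a block, 27 members were lower and 0 higher, against 13.7% and 17.0% of all genes, and the median stayed at -0.28. The calls also rested on single libraries. Without MN1pQdel replicate 2, the library that stood apart, 40 members were lower and 1 higher, against 20.6% and 21.3% of all genes, and without the whole replicate 2 pair, a choice made after seeing the data, 28 were lower and 1 higher, against 17.4% in each direction. Without MN1pQdel replicate 1 or 3, or without any of the MN1 libraries, 0 members were called by edgeR, Mrpl38 included, with 3 to 13 lower and 1 higher at an unadjusted p under 0.05 in these 5 fits. These fits called few genes in general, between 0.631% and 1.80% of all genes lower and between 2.49% and 4.51% higher, and between 10.2% and 12.1% were lower at an unadjusted p under 0.05. The 1 higher gene in these fits was Mrpl33.

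**Figure D2:**
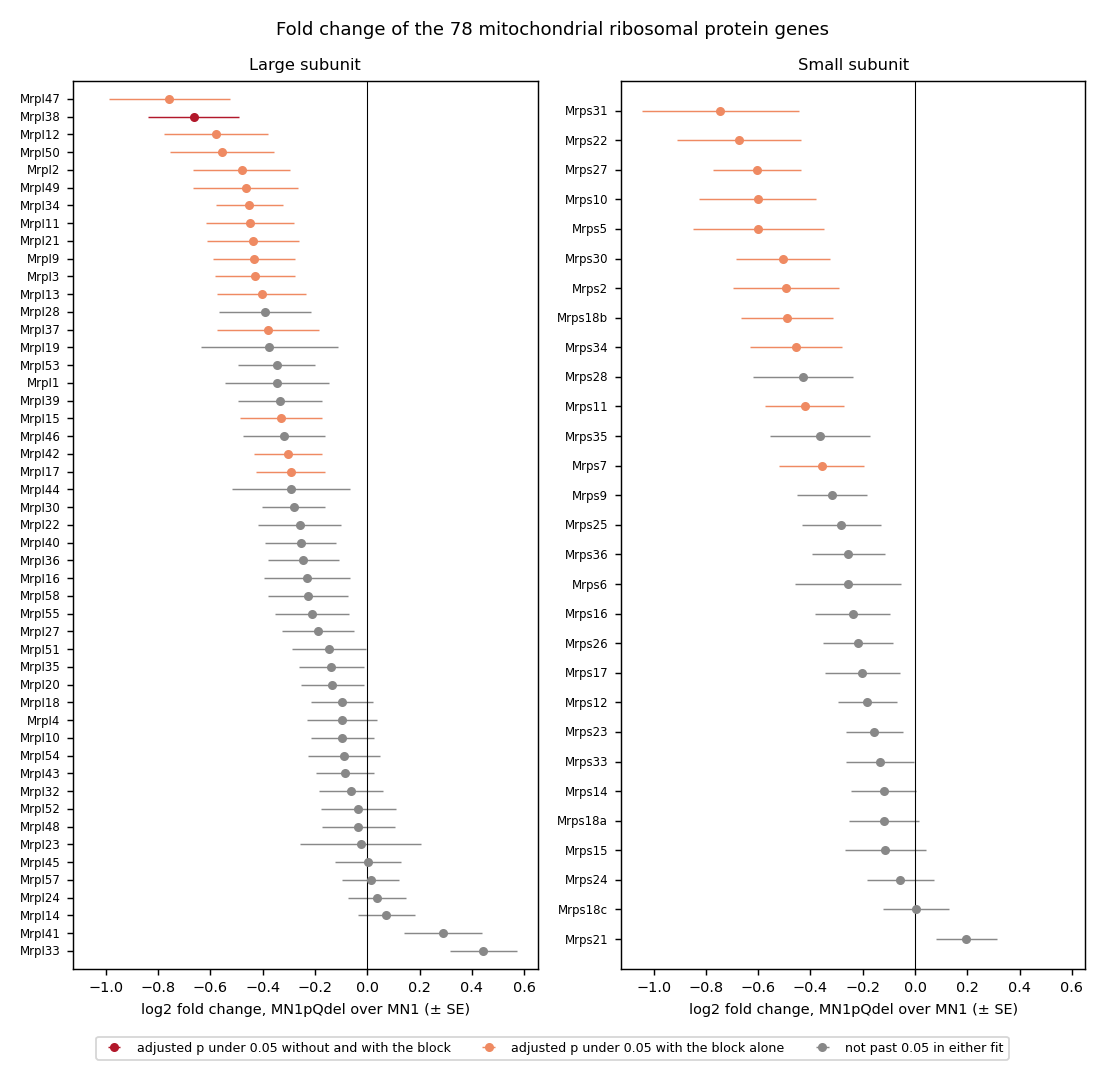
Log2 fold change of MN1pQdel over MN1 (x axis, with its SE) for the 49 large subunit genes (left) and the 29 small subunit genes (right), sorted within each panel. Colour gives whether the edgeR adjusted p is under 0.05 without the replicate block, with it alone, or in neither fit. Points run from -0.76 (Mrpl47) to 0.44 (Mrpl33), 70 of 78 lie left of 0, and all 27 coloured points lie left of 0.

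The 2 subunits and the 2 evolutionary classes had similar medians. The median was -0.26 for the large and -0.28 for the small subunit, with 43 of 49 and 27 of 29 genes below 0. Proteins with a bacterial counterpart (47 genes) had a median of -0.26 and those added in mitochondria (31 genes) one of -0.28. The 11 mitochondria-specific genes with an Mrps symbol, which include Mrps30 and Mrps36, had a median of -0.36, with 11 of 11 below 0. No test of the difference between these groups was made, and their ranges overlapped widely.

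In the large subunit, the called gene was Mrpl38 (chromosome 11, 116131817 to 116138868 on GRCm38, minus strand), which encodes a mitochondria-specific protein of the central protuberance, the crest that faces the small subunit. It stood at 25.2, 33.0 and 23.1 CPM in MN1pQdel, at 38.6, 48.1 and 42.1 CPM in MN1 and at 23.6 CPM in noTD. The highest MN1pQdel library was below the lowest MN1 library, and noTD lay among the MN1pQdel libraries. The mean was 27.1 ± 5.24 CPM in MN1pQdel and 42.9 ± 4.78 CPM in MN1 (SD, n = 3 each), and the log2 fold change was -0.66 (SE 0.17, edgeR adjusted p = 0.0449, with the block 0.0176). Leaving out any single library except MN1pQdel replicate 2 ended this call, at adjusted p between 0.0983 and 0.155 and log2 fold changes from -0.74 to -0.56, while without MN1pQdel replicate 2 it was -0.85 (edgeR adjusted p = 0.00497).

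Mrpl47 (chromosome 3, 32725397 to 32737605, minus strand), the counterpart of a bacterial protein beside the exit of the peptide tunnel, had the largest difference of all members. Its levels were 11.5, 18.2 and 11.6 CPM in MN1pQdel, 20.9, 26.9 and 22.0 CPM in MN1 and 12.6 CPM in noTD. The groups did not overlap, and MN1pQdel replicate 2 came nearest to MN1. The log2 fold change was -0.76 (SE 0.23, edgeR adjusted p = 0.0645, with the block 0.0195). Mrpl12 (chromosome 11, 120484613 to 120489065, plus strand), whose protein forms the flexible stalk that recruits translation factors and, in human cells, also binds the mitochondrial RNA polymerase, stood at 79.1, 107 and 67.5 CPM in MN1pQdel, at 118, 150 and 111 CPM in MN1 and at 75.9 CPM in noTD. Here too the groups were separate, by the small gap between MN1pQdel replicate 2 and MN1 replicate 3 (log2 fold change -0.58, SE 0.20, edgeR adjusted p = 0.0866, with the block 0.0136). Mrpl50, a mitochondria-specific protein, was measured at 18.7, 28.4 and 20.7 CPM in MN1pQdel, at 29.2, 37.7 and 32.8 CPM in MN1 and at 19.7 CPM in noTD (-0.56, edgeR adjusted p = 0.0917, with the block 0.0233). Mrpl2, whose bacterial counterpart sits next to the site of peptide bond formation, was measured at 43.3, 54.7 and 33.5 CPM in MN1pQdel, at 59.7, 66.3 and 57.5 CPM in MN1 and at 40.1 CPM in noTD (-0.48, edgeR adjusted p = 0.111, with the block 0.0395). In each of these genes replicate 2 was the highest library of its group.

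In the small subunit, 0 of 29 genes passed in edgeR without the block, where 6.08% of all genes were lower and 11.1% higher. At an unadjusted p under 0.05 by edgeR, 11 were lower and 0 higher, against 16.8% and 21.0% of all genes. DESeq2 called 3 lower (12.9% of all genes) and limma-voom 1 (6.58%). With the block, 11 were lower in edgeR, against 13.7% of all genes. Mrps31 (chromosome 8, 22411361 to 22429665, plus strand), a mitochondria-specific protein, stood at 8.30, 15.1 and 7.44 CPM in MN1pQdel, at 16.2, 20.0 and 15.5 CPM in MN1 and at 8.82 CPM in noTD. Replicates 1 and 3 of MN1pQdel were near noTD, while replicate 2 lay just under MN1 replicate 3 (-0.74, SE 0.30, edgeR adjusted p = 0.121, with the block 0.0354). Mrps22, also mitochondria-specific and mutated in human mitochondrial disease, was measured at 13.6, 22.3 and 14.1 CPM in MN1pQdel, at 22.5, 31.1 and 26.1 CPM in MN1 and at 14.3 CPM in noTD (-0.67, edgeR adjusted p = 0.0912, with the block 0.0233). Mrps27, a protein with pentatricopeptide repeats that bind RNA, was measured at 22.9, 31.2 and 21.8 CPM in MN1pQdel, at 37.0, 40.4 and 38.0 CPM in MN1 and at 20.6 CPM in noTD (-0.60, edgeR adjusted p = 0.0511, with the block 0.0263). Of the small subunit genes named here, Mrps27 had the tightest MN1 group.

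Among the counterparts of bacterial small subunit proteins, Mrps10 stood at 25.9, 37.1 and 21.2 CPM in MN1pQdel, at 42.2, 48.1 and 37.6 CPM in MN1 and at 24.6 CPM in noTD (-0.60, edgeR adjusted p = 0.101, with the block 0.0258). Mrps2 stood at 24.4, 39.6 and 26.9 CPM in MN1pQdel, at 40.1, 47.0 and 41.1 CPM in MN1 and at 25.9 CPM in noTD (-0.49, edgeR adjusted p = 0.125, with the block 0.0393). In both, MN1pQdel replicate 2 lay within 1 CPM of the lowest MN1 library. Mrps30 carries a small subunit symbol, although structures of the mammalian ribosome place its protein in the large subunit. It was measured at 33.8, 39.8 and 25.9 CPM in MN1pQdel, at 45.8, 52.0 and 43.3 CPM in MN1 and at 31.5 CPM in noTD (-0.50, edgeR adjusted p = 0.0932, with the block 0.0297). Mrps12, which lies at the decoding site, showed a smaller difference, at 33.1, 33.9 and 32.0 CPM in MN1pQdel, 36.3, 40.5 and 35.5 CPM in MN1 and 32.5 CPM in noTD (-0.18, edgeR adjusted p = 0.276).

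The 3 Mrps18 genes encode variants of 1 bacterial protein, each in its own place on the ribosome, and the variant of Mrps18a sits on the large subunit. Mrps18b stood at 35.7, 50.4 and 38.5 CPM in MN1pQdel, at 53.0, 68.3 and 53.7 CPM in MN1 and at 36.7 CPM in noTD, without overlap (-0.49, SE 0.18, edgeR adjusted p = 0.0934, with the block 0.0172). Mrps18a stood at 36.4, 36.7 and 31.1 CPM in MN1pQdel, at 37.7, 41.3 and 34.2 CPM in MN1 and at 37.5 CPM in noTD, with overlap (-0.12, SE 0.13, edgeR adjusted p = 0.536). Mrps18c stood at 37.8, 37.0 and 33.2 CPM in MN1pQdel, at 34.1, 39.9 and 33.8 CPM in MN1 and at 36.2 CPM in noTD, and its groups lay on top of each other (0.00, SE 0.13, edgeR adjusted p = 0.984). Their fold changes thus ran from -0.49 to 0.00, and the differences between them were not tested. Mrps36 and Mrpl58 have roles outside the ribosome in mammals, Mrps36 in the oxoglutarate dehydrogenase complex and Mrpl58 as a hydrolase that frees peptides from stalled ribosomes, and neither passed in either fit (-0.26 and -0.23, edgeR adjusted p = 0.219 and 0.311).

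A few genes ran the other way. Mrpl33 (chromosome 5, 31596935 to 31664384, plus strand), the counterpart of a small bacterial protein near the tRNA exit site, stood at 62.6, 53.7 and 60.0 CPM in MN1pQdel, at 41.0, 48.9 and 39.7 CPM in MN1 and at 65.3 CPM in noTD. Every MN1pQdel library was above every MN1 library, and noTD was the highest of all. The log2 fold change was 0.44 (SE 0.13), just outside the threshold without and with the block (edgeR adjusted p = 0.0555 and 0.0569), and inside it without MN1pQdel replicate 2 (0.0217). Mrpl41 stood at 39.8, 34.2 and 45.9 CPM in MN1pQdel, at 29.7, 35.4 and 32.9 CPM in MN1 and at 35.4 CPM in noTD (0.29, edgeR adjusted p = 0.199), and its groups overlapped through replicate 2. Mrps21 stood at 51.2, 43.4 and 46.6 CPM in MN1pQdel, at 39.8, 44.4 and 39.1 CPM in MN1 and at 53.1 CPM in noTD (0.20, edgeR adjusted p = 0.260). With library totals in place of TMM, which moves the median of all genes from 0.01 down to -0.19, only Mrpl33 and Mrpl41 stayed above 0, at 0.24 and 0.08, and Mrps21 was at -0.01.

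**Figure D3:**
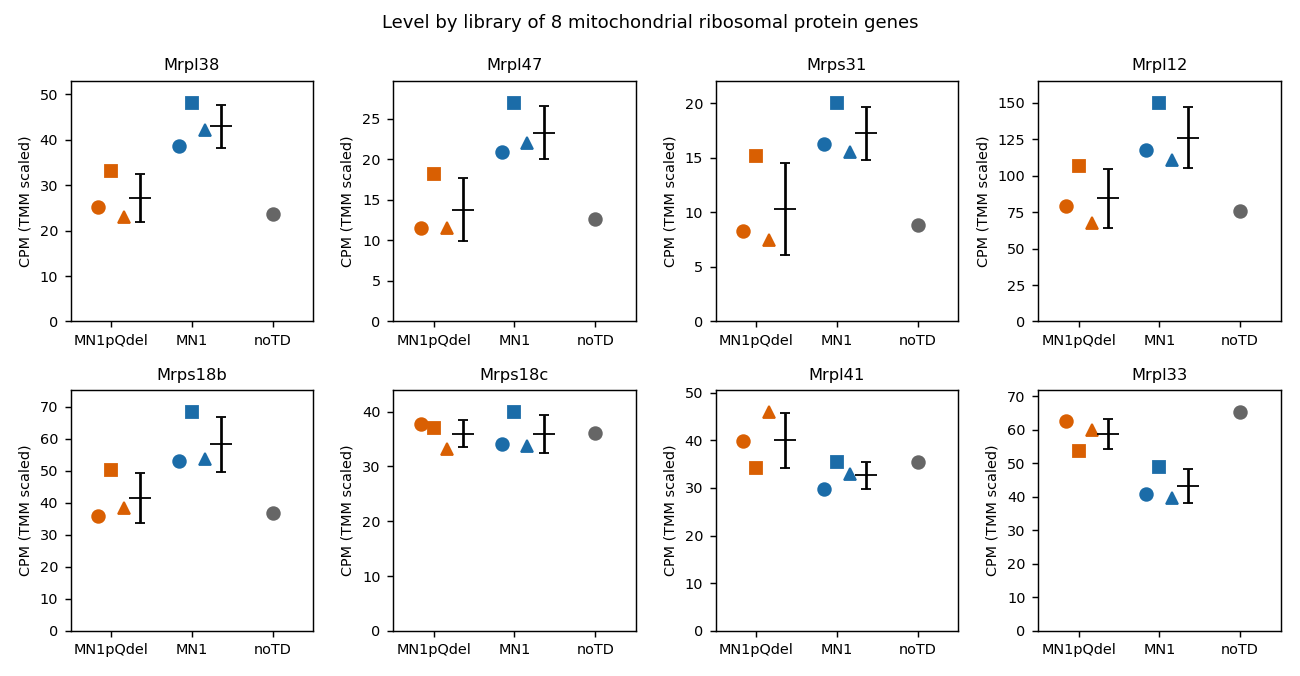
Level in CPM (y axis from 0) of 8 genes in each library of MN1pQdel, MN1 and noTD, with the mean and SD over 3 libraries beside the transduced groups and marker shape giving replicates 1 (circle), 2 (square) and 3 (triangle). In the first 5 panels MN1pQdel lies below MN1, with the MN1pQdel square nearest to it, in Mrps18c the groups coincide, and in Mrpl33 the order is turned round.

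The promoters of these genes were examined for the letters that known regulators of mitochondrial genes bind. RefSeq windows of 250 bases before to 50 after the start (GRCm38.p6) were matched by symbol for 69 of 78 members. The motifs searched on both strands were CCGGAAG, the core bound by ETS factors such as GABP, AAGATGGC for YY1, CGCATGCG for NRF1, CACGTG (the E-box bound by MYC and MAX) and TATAAA (the TATA box). The ETS core and the YY1 motif can overlap by the letters AAG. The ETS core was found in 26 members, or 37.7%, against 18.7% of 10791 tested genes with a window and 9.93% of all 27025 genes with one. YY1 was found in 12 members (17.4%, against 4.95% and 3.19%), NRF1 in 7 (10.1%, against 4.08% and 2.07%), the E-box in 5 (7.25%, against 11.2% and 8.09%) and the TATA box in 5 (7.25%, against 9.65% and 15.7%). Members with the ETS core had a median log2 fold change of -0.19 and those without it -0.29, members with YY1 -0.27 and those without it -0.26, and members with NRF1 -0.29 and those without it -0.25. A match describes letters and not a bound site.

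4 promoters are printed from 250 bases before to 30 after the start, to set side by side a pair of genes low in MN1pQdel, the gene that ran the other way and a gene with coinciding groups. Capitals mark the motifs. Mrps27 (chr13:99344536-99344815, plus strand) holds the ETS core, read on the opposite strand, and the YY1 motif downstream of the start. Mrps22 (chr9:98601650-98601929, minus strand) holds the ETS core just before the start. Mrpl33 (chr5:31613701-31613980, plus strand; the RefSeq start lies inside the interval of the gene given above) holds it across the start, and Mrps18c (chr5:100798509-100798788, plus strand) holds an E-box followed after 1 base by the ETS core on the opposite strand.
Mrps27: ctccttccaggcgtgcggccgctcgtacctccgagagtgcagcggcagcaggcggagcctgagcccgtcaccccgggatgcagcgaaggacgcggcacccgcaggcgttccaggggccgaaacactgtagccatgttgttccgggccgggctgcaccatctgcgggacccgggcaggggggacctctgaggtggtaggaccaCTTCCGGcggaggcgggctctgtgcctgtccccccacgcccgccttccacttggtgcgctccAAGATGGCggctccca
Mrps22: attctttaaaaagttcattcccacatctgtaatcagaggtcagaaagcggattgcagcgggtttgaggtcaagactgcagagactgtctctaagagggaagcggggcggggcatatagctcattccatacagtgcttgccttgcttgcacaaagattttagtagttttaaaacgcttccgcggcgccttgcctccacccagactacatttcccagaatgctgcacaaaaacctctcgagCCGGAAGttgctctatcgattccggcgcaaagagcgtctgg
Mrpl33: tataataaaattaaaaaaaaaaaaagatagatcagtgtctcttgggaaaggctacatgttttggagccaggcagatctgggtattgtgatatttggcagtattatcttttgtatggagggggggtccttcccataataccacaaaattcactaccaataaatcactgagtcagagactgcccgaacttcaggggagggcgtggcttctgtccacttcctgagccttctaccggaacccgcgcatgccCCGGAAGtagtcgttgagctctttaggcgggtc
Mrps18c: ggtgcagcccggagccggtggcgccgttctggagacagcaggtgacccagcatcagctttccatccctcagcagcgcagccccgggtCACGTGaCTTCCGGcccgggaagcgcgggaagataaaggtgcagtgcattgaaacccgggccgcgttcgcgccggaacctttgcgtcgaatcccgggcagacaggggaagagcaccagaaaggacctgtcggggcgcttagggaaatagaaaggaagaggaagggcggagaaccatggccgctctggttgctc
The ETS core thus stood in the window of all 4 genes, whose log2 fold changes were -0.60, -0.67, 0.44 and 0.00 in the order printed. These 4 were picked by hand and do not stand for the members, of which 26 of 69 with a window held the core. Mrpl47 and Mrps31, which had the lowest fold changes, held none of the motifs searched. A pair of members shares a promoter region: the starts of Mrpl46 (minus strand) and Mrps11 (plus strand) lie 42 bases apart on chromosome 7. This pair was picked for its shared promoter, outside the naming rule. Mrps11 stood at 19.0, 22.9 and 17.4 CPM in MN1pQdel, at 26.0, 28.2 and 25.3 CPM in MN1 and at 19.3 CPM in noTD (-0.42, edgeR adjusted p = 0.0948, with the block 0.0427). Mrpl46 stood at 22.8, 23.6 and 19.4 CPM in MN1pQdel, at 25.3, 31.5 and 25.4 CPM in MN1 and at 22.0 CPM in noTD (-0.32, edgeR adjusted p = 0.179, with the block 0.0886). In both genes the groups did not overlap.

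The median fold change differed between members grouped by transcript length, without a steady order, and the difference was not tested. Taking the longest protein-coding transcript of each gene in GENCODE M21, the 26 members with the shortest transcripts (463 to 1056 bases) had a median log2 fold change of -0.19, the next 26 (1068 to 1849 bases) one of -0.35 and the 26 longest (1962 to 7300 bases) one of -0.31. All tested genes in the same ranges of length had medians of -0.04, -0.06 and 0.02. Across the 78 members, which are not independent replicates, log2 length and log2 fold change correlated at r = -0.27 and rho = -0.26, and across 13681 tested genes with a length at -0.01 and 0.03. The 3 genes with the most positive fold changes, Mrpl33, Mrpl41 and Mrps21, have transcripts of 478, 776 and 488 bases.

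**Figure D4:**
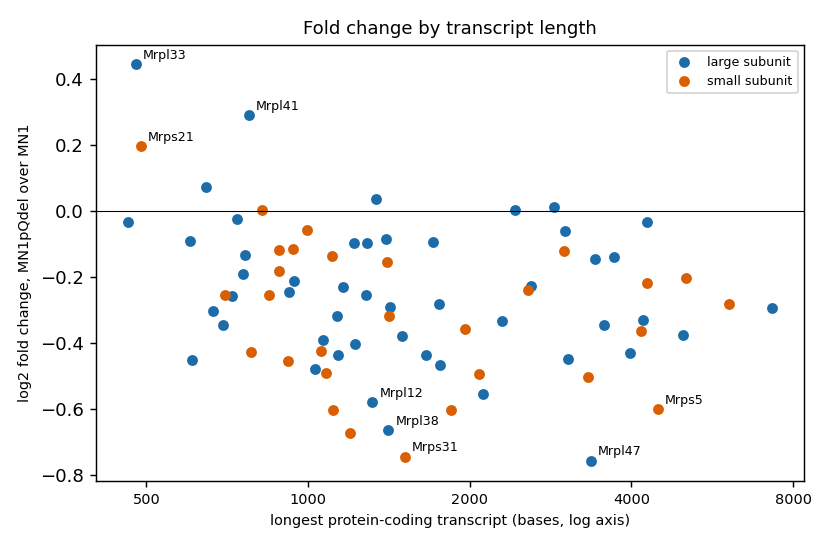
Log2 fold change of MN1pQdel over MN1 (y axis) against the length in bases of the longest protein-coding transcript (x axis, log scale) for the 49 large and 29 small subunit genes, each point 1 gene. The genes above 0.1 lie at the short end (478 to 776 bases), and the lowest point, Mrpl47, has a transcript of 3364 bases.

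Although the proteins are assembled into 1 particle, with few exceptions in single copies, their messenger RNA levels per length were spread widely. Mrpl33 had the highest level per kilobase, at 123 CPM per kb in MN1pQdel, 90.4 in MN1 and 137 in noTD, followed by Mrps21 at 96.5, 84.2 and 109 in the same order. Mrpl20, Mrpl12 and Mrpl18 came next, at 77.6, 64.2 and 66.5 CPM per kb in MN1pQdel, at 85.1, 95.9 and 71.2 in MN1 and at 67.9, 57.7 and 61.2 in noTD. The order differed between groups: in MN1 it was Mrpl12, a stalk protein that is present in several copies, that had the highest value. At the low end were Mrpl47, Mrpl1, Mrpl23, Mrps25 and Mrps35, between 4.10 and 6.67 CPM per kb in MN1pQdel, between 6.15 and 8.58 in MN1 and between 3.75 and 6.55 in noTD. The longest transcript sets these values, so a gene that uses a shorter one is placed too low. The level of Mrpl23 is uncertain for another reason: Mrpl23-ps1, a pseudogene copy, had 1337, 1006 and 723 estimated counts in MN1pQdel, 858, 910 and 1073 in MN1 and 795 in noTD, against 307, 243 and 171 for Mrpl23 in MN1pQdel, 223, 226 and 184 in MN1 and 169 in noTD, and reads of one can be assigned to the other.

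Set against the untransduced library, the MN1pQdel cells lay near it and the MN1 cells above it. With 1 noTD library there is no test, and both comparisons share that library, so their values are given side by side as a description. In MN1pQdel, 0 members were more than 1.5-fold higher and 0 more than 1.5-fold lower than noTD, where 6.69% and 6.85% of all genes were. The median difference was 0.08 on the log2 scale (0.03 over all genes), within -0.17 and 0.38, and all 3 libraries were above noTD for 8 members and below it for 6 (19.8% and 20.2% of all genes). In MN1, 19 members were more than 1.5-fold higher and 1 lower, where 21.6% and 24.9% of all genes were, so the share of members past this fold was near the background for the higher direction. The median difference was 0.34 (0.02 over all genes), within -0.59 and 0.98. All 3 MN1 libraries were above noTD for 61 members and below it for 4, against 40.7% and 40.5% of all genes.

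The libraries of a group differed in how far they stood from noTD. Per library the median difference from noTD was 0.02, 0.26 and -0.10 in MN1pQdel replicates 1 to 3, and 0.27, 0.49 and 0.28 in MN1 replicates 1 to 3. MN1pQdel replicate 2 was thus about as far from noTD as MN1 replicates 1 and 3, and without it the MN1pQdel median was -0.040. Without MN1 replicate 2, the count of members more than 1.5-fold higher in MN1 was 12. The share of all genes past this fold without that library is not given here, so the 12 cannot be set against a background. MN1pQdel replicate 2 also had the highest proliferation sum of its group and the lowest sums of eosinophil and mast cell markers. The 12 mast cell genes summed to 15204, 3047 and 18291 CPM in MN1pQdel replicates 1 to 3 and to 16102 CPM in noTD. In MN1 replicates 1 to 3 they summed to 3907, 1708 and 3606 CPM. MN1 replicate 2 likewise had the highest proliferation sum of its group (5710 CPM) and the lowest eosinophil (13.3 CPM) and mast cell sums. The part of these markers in the position of either library was not tested.

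**Figure D5:**
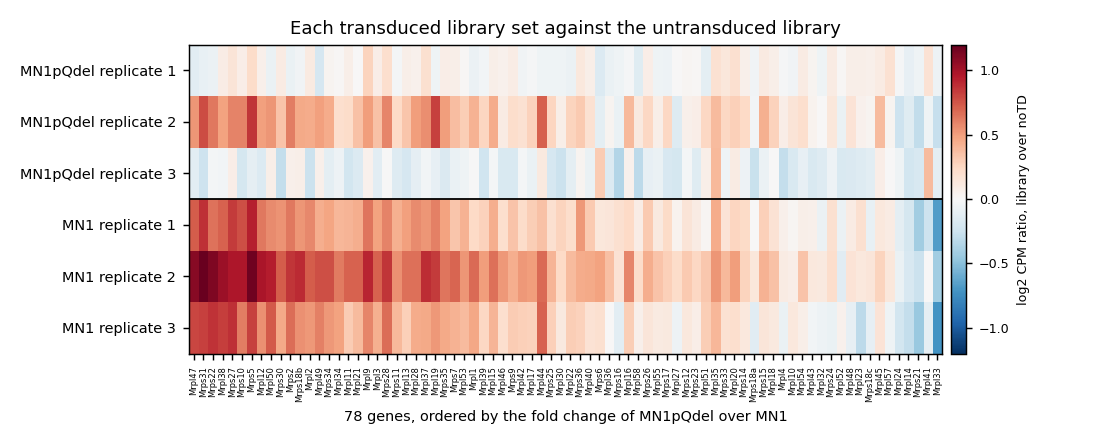
Log2 ratio of CPM in each transduced library over the noTD library (colour, red above and blue below noTD) for the 78 genes, ordered by the fold change of MN1pQdel over MN1, with MN1pQdel in the upper and MN1 in the lower 3 rows. MN1pQdel replicates 1 and 3 are pale throughout, MN1pQdel replicate 2 and the MN1 libraries are red on the left, and Mrpl33 at the right edge is blue in MN1. Ratios run from -0.72 to 1.18.

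The gene farthest above noTD in both transduced groups was Mrps5. Mrps5, counterpart of a bacterial protein that helps keep decoding accurate, stood at 38.4, 59.9 and 30.6 CPM in MN1pQdel, at 62.9, 74.0 and 58.3 CPM in MN1 and at 33.0 CPM in noTD. It lay 0.38 above noTD in MN1pQdel and 0.98 above it in MN1, and MN1pQdel replicate 2 reached into the MN1 range. The log2 fold change of Mrps5 in MN1pQdel over MN1 was -0.60 (edgeR adjusted p = 0.131, with the block 0.0328). Mrps31, Mrps27, Mrps22 and Mrpl47 followed in MN1, at 0.97, 0.90, 0.89 and 0.88 above noTD, and stood at 0.22, 0.29, 0.22 and 0.13 above it in MN1pQdel. Other members with a high MN1pQdel mean were Mrpl35, Mrpl44 (a protein with an RNase III-like fold) and Mrpl19, at 0.32, 0.30 and 0.29 above noTD, and at 0.46, 0.59 and 0.66 above it in MN1. With single MN1pQdel libraries left out, these MN1pQdel differences ran from 0.287 to 0.387, from 0.035 to 0.447 and from -0.076 to 0.446. Those of Mrpl44 and Mrpl19 thus rested largely on MN1pQdel replicate 2, at 45.4 and 66.02 CPM, against 27.7 and 37.5 CPM in noTD. Mrpl19 lay below noTD in MN1pQdel replicates 1 and 3, and Mrpl44 in replicate 1. At the other end, Mrpl33 lay -0.15 from noTD in MN1pQdel and -0.59 in MN1, Mrps21 -0.17 and -0.37, and Mrpl14 -0.15 and -0.23. Mrps16 and Mrpl27 were at -0.15 and -0.12 in MN1pQdel, where they were among the lowest, and at 0.09 and 0.07 in MN1. Mrpl24 and Mrpl41 were at -0.10 and 0.18 in MN1pQdel, and at -0.14 and -0.11 in MN1.

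The other nuclear genes of mitochondrial translation and gene expression lay mostly low in MN1pQdel as well. The 6 lists used include the genes of genome copying and transcription and the nuclear regulators, which are described further below. Of 101 nuclear genes tested on these 6 lists, 7 were lower and 1 higher in MN1pQdel (edgeR adjusted p under 0.05, against 6.08% and 11.1% of all genes), and 37 were lower and 2 higher with the replicate block (13.7% and 17.0% of all genes). As for the ribosomal proteins, 0 were called without MN1pQdel replicate 1 or 3 or any MN1 library, and 50 were lower and 2 higher without MN1pQdel replicate 2 (20.6% and 21.3% of all genes). The median was -0.42 over 5 ribosomal proteins with other symbols, -0.18 over 27 genes of ribosome assembly and rRNA modification, -0.37 over 13 translation factors and -0.40 over 22 genes of aminoacyl-tRNA synthesis, against 0.01 over all genes. Calls with the block were 3 lower and 1 higher for the proteins with other symbols, 6 lower for assembly, 6 lower for translation factors and 10 lower for aminoacyl-tRNA synthesis, with 0 higher in the last 3.

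Gadd45gip1, a protein of the large subunit, stood at 42.9, 57.3 and 46.4 CPM in MN1pQdel, at 64.5, 79.3 and 72.1 CPM in MN1 and at 44.6 CPM in noTD. It was lower in MN1pQdel (-0.56, SE 0.15, edgeR adjusted p = 0.0448, with the block 0.0139). The list of proteins with other symbols was short, and its remaining members, outside the naming rule, split: Ptcd3 and Chchd1 were lower and Aurkaip1 higher with the block (edgeR adjusted p = 0.0237, 0.0288 and 0.0329), and Dap3 was not called (0.283). Rcc1l, which in human cells is needed for ribosome assembly, stood at 17.8, 23.3 and 16.3 CPM in MN1pQdel, at 28.7, 35.4 and 31.1 CPM in MN1 and at 16.6 CPM in noTD (-0.73, SE 0.18, edgeR adjusted p = 0.0376, with the block 0.0171). Oxa1l, which inserts newly made proteins into the inner membrane, stood at 51.7, 55.5 and 50.0 CPM in MN1pQdel, at 64.2, 68.1 and 71.5 CPM in MN1 and at 52.6 CPM in noTD (-0.37, SE 0.10, edgeR adjusted p = 0.0480, with the block 0.0339). Among the tRNA synthetases, Vars2 for valine stood at 22.1, 27.1 and 20.8 CPM in MN1pQdel, at 36.5, 34.0 and 36.6 CPM in MN1 and at 24.9 CPM in noTD (-0.62, edgeR adjusted p = 0.0329, with the block 0.0313). Kars, whose gene gives both the cytosolic and the mitochondrial enzyme for lysine, stood at 168, 217 and 154 CPM in MN1pQdel, at 264, 283 and 252 CPM in MN1 and at 161 CPM in noTD (-0.57, edgeR adjusted p = 0.0454, with the block 0.0195). For all 5 called genes the groups were separate, and each of these calls was lost without MN1pQdel replicate 1 or 3 or any MN1 library.

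Genes that copy and transcribe the mitochondrial genome had a median of -0.43 over 18 genes. Of these, 2 were lower and 1 higher (6.08% and 11.1% of all genes), and 9 lower and 1 higher with the block (13.7% and 17.0%). Twnk, the helicase of the mitochondrial genome, stood at 11.3, 20.9 and 13.0 CPM in MN1pQdel, at 26.4, 29.3 and 33.6 CPM in MN1 and at 11.0 CPM in noTD (-0.98, SE 0.25, edgeR adjusted p = 0.0435, with the block 0.0289). Elac2, which trims tRNA ends, stood at 49.8, 64.0 and 42.6 CPM in MN1pQdel, at 87.0, 86.6 and 78.7 CPM in MN1 and at 47.6 CPM in noTD (-0.69, SE 0.16, edgeR adjusted p = 0.0341, with the block 0.0184). Polg, the catalytic subunit of the mitochondrial DNA polymerase, went the other way, at 93.6, 102 and 86.9 CPM in MN1pQdel, 71.4, 74.2 and 73.9 CPM in MN1 and 84.2 CPM in noTD (0.36, SE 0.10, edgeR adjusted p = 0.0491, with the block 0.0324). These calls too were lost without MN1pQdel replicate 1 or 3 or any MN1 library, and that of Polg with library totals (0.16, adjusted p = 0.331). On the list of 17 nuclear regulators, which holds Nrf1, Gabpa, Yy1, Myc and other factors, 0 were called by edgeR without the block. At an unadjusted p under 0.05 by edgeR, 3 were lower and 1 higher, against 16.8% and 21.0% of all genes. DESeq2 called 2 lower (12.9% of all genes) and limma-voom 1 lower (6.58%). With the block 4 were lower and 0 higher (13.7% and 17.0% of all genes). Without the replicate 2 pair 3 were lower and 1 higher (17.4% of all genes in each direction). The median of this list was -0.19. Its most abundant gene, Atf4, an activator of amino acid and stress genes, stood at 469, 476 and 320 CPM in MN1pQdel, at 617, 571 and 393 CPM in MN1 and at 434 CPM in noTD (-0.32, edgeR adjusted p = 0.327, with the block 0.0423).

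The messages that the mitochondrial ribosome itself translates lay, if anything, higher in MN1pQdel. The 13 genes encoded in mitochondrial DNA summed to 25182, 23767 and 22447 CPM in MN1pQdel, to 19263, 22094 and 19466 CPM in MN1 and to 24175 CPM in noTD. Each MN1pQdel library was above each MN1 library, by a narrow gap between MN1pQdel replicate 3 and MN1 replicate 2, and noTD lay within the MN1pQdel range. Their median log2 fold change was 0.23, with 12 of 13 above 0. None was called in either direction by edgeR without the block, against 6.08% of all genes lower and 11.1% higher. At an unadjusted p under 0.05 by edgeR, 3 were higher and 0 lower, against 21.0% and 16.8% of all genes. DESeq2 called 2 higher (16.5% of all genes) and limma-voom 0 (8.95%). With the block 1, mt-Nd3, was higher in edgeR (17.0% of all genes). mt-Co1, the largest subunit of cytochrome oxidase, stood at 8042, 7579 and 7428 CPM in MN1pQdel, at 5848, 6109 and 6460 CPM in MN1 and at 7867 CPM in noTD (0.32, SE 0.11, edgeR adjusted p = 0.0844, with the block 0.0653). With library totals the median of these 13 genes was 0.03, with 7 of 13 above 0, where all genes had a median of -0.19 and the ribosomal protein genes one of -0.47.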

How the data were processed

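Estimated counts per gene symbol for 7 libraries were deposited by the authors as 1 table, not normalised. Kallisto, DESeq2 and the GRCm38 build are named, per the submitters' processing notes; no source used here gives versions, the transcript index or a strand setting. Of the values 32.5% were not whole (tolerance 1e-06). Counts were rounded. Gene symbols in 26 rows had become calendar dates, and none matches the member rule.

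Genes were filtered with filterByExpr on the transduced groups (14808 left), scaled by TMM and tested in edgeR 4.0.16 (R 4.3.3) by the quasi-likelihood test, setting 3 MN1pQdel against 3 MN1 libraries in a model of group alone. P-values were adjusted over all genes by the Benjamini-Hochberg method, with a threshold of 0.05. Fold changes are log2 of MN1pQdel over MN1. The noTD library was described by log2 CPM differences from each group's mean with a prior count of 2, and a 1.5-fold difference was counted. DESeq2 1.42.0, limma-voom (limma 3.58.1), other scalings and filters and leave-outs of libraries were tried as alternatives. The scripts were tested on simulated data. Replicates of a group differed far beyond sampling noise (chi-square per gene from 43.3 to 352). No count of reads in a library limits these genes much, since the lowest member had 169 to 307 estimated counts.

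Whether replicate numbers pair libraries was checked by correlating each library's deviation from its group mean across genes. Same-numbered libraries gave 0.367, 0.258 and 0.320, others -0.282 to -0.0599. Same-numbered libraries thus behaved as pairs, although no label says what a number marks. The main fit used group alone and ignored this pairing. The fit with the replicate block is given beside the unblocked one where it changes a call.

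The members and lists were chosen with earlier results of these data known. The naming rule took the called members, members without overlap between groups up to 12 in all, the 5 highest and 5 lowest per kilobase, the 5 farthest from noTD in each direction and group, the Mrps18 genes, Mrps12, Mrps36, Mrpl12 and Mrpl58, and up to 3 called genes, or else the most abundant, of each other list. The listed symbols Ict1, Trmt61b, Mtres1, mt-Rnr1 and mt-Rnr2 were not analysed under these names. Ict1 is an older symbol of Mrpl58, which was analysed as a member. Coordinates and transcript lengths are from GENCODE M21 (GRCm38), promoters from RefSeq (GRCm38.p6), both matched by symbol.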

Additional observations from a re-analysis of the deposited data

How the results depend on the processing

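The direction of the median over the 78 genes in MN1pQdel against MN1 held under every alternative run, while the number of called genes did not, and the cause was not tested. The count of lower members was 1 as reported, 27 with the replicate block (13.7% of all genes lower), 2 with DESeq2 size factors (6.3%), 8 with library totals (12.5%), 2 with a minimum of 1 CPM in 3 libraries (6.4%), 8 with the DESeq2 test (12.9%), 2 with limma-voom (6.58%), 28 without the replicate 2 pair (17.4%) and 0 to 40 with single libraries left out (0.631% to 20.6%). The count of higher members was 0 as reported, 1 with the DESeq2 test, 1 without the pair and 0 to 1 with single libraries left out. On the other mitochondrial lists, the 13 genes of mitochondrial DNA included (114 genes), 7 genes were lower and 1 higher, against 37 and 3 with the replicate block, 25 and 0 with library totals, 25 and 3 with the DESeq2 test, 38 and 2 without the pair, and 0 to 50 and 0 to 2 with single libraries left out. The higher count there was 0 with DESeq2 size factors (10.6% of all genes), without a filter (6.45%) and with limma-voom (8.95%). The shares of all genes called lower given above apply here too, with 6.08% in the main fit. Of all genes 11.1% were higher in the main fit, 17.0% with the block, 7.7% with library totals and 16.5% with the DESeq2 test. Without the pair 17.4% were higher, and 2.49% to 21.3% with single libraries left out. Library totals moved the median of the 78 genes to -0.47 and their summed difference to -0.46, where the median of all genes moved to -0.19.

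Against noTD, the MN1pQdel median turned to -0.040 without replicate 2, within a range up to 0.15. With library totals the MN1 median was 0.58 (all genes 0.26), with 39 members higher and 0 lower. The share of all genes past this fold under that scaling is not given here, so the 39 cannot be set against a background. The MN1 count of 19 higher members ran from 12 (without replicate 2) to 21, and that of 1 lower, Mrpl33, from 0 to 1, with 0 without a filter. The shares of all genes under these alternatives are not given here either.

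The main limits are 3 libraries a group, of which MN1pQdel replicate 2 stands apart, a single untransduced library, Mn1 levels that differ between the transduced groups, and cell mixtures that differ with them. Without a stated strand, members that overlap a gene on the other strand cannot be separated from it.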

Other observations

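The ribosome of the cytosol was not part of the comparison above. Its 80 tested protein genes, a list added after the data were seen, summed to 54982, 53294 and 47186 CPM in MN1pQdel, to 61378, 61100 and 56931 CPM in MN1 and to 49738 CPM in noTD. The groups were separate on this sum, with every MN1pQdel library below every MN1 library. The median log2 fold change of MN1pQdel over MN1 was -0.21, and 75 of 80 genes were below 0. By edgeR's quasi-likelihood test 1 of these genes was lower, Rpl12 (-0.58, Benjamini-Hochberg adjusted p = 0.0213), and 1 higher, Rps4l (1.85, adjusted p = 0.0346). Both were named after their values were seen. Across all genes 6.08% were called lower and 11.1% higher, so the shares called here were below the background. With the replicate block 13 were lower and 1 higher, against 13.7% and 17.0% of all genes. Without MN1pQdel replicate 2 and its pair, 6 were lower and 1 higher, against 17.4% of all genes in each direction. Genes of the cytosolic ribosome have many processed copies that can share reads, so single levels are uncertain.

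The 77 nuclear genes for subunits of the respiratory chain and ATP synthase, also listed afterwards, had a median of -0.09, with 55 of 77 below 0. None was called by edgeR, against 6.08% of all genes lower and 11.1% higher. At an unadjusted p under 0.05 by edgeR, 7 were lower and 3 higher, against 16.8% and 21.0% of all genes. DESeq2 called 5 lower (12.9% of all genes) and limma-voom 1 (6.58%). In edgeR 8 were lower and 1 higher with the replicate block (13.7% and 17.0% of all genes). Without MN1pQdel replicate 2, 15 were lower and 3 higher (20.6% and 21.3%). They summed to 9747, 10049 and 8709 CPM in MN1pQdel, to 10282, 11073 and 9829 CPM in MN1 and to 9299 CPM in noTD, and MN1pQdel replicate 2 lay above MN1 replicate 3. The difference between these medians and that of the mitochondrial ribosomal protein genes was not tested.

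Of 5 Mrp pseudogene rows outside the naming rule for members, Mrpl23-ps1 alone had more than 4 estimated counts in any library.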
